A study of Mus musculus with 28 samples.

Results

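Interferon-stimulated genes are genes whose transcription rises when a cell receives an interferon signal. The set described here is a list of 46 mouse genes given by symbol, and all 46 had a row in the table of kidney expression values. Of these, 44 passed the filter on low values (1 or more in 5 or more of the 28 libraries) and were tested among 13495 genes. The 2 that did not pass were Mx1, at or above 1 in 1 library, and Mx2, in 4 libraries, both dynamin-like antiviral GTPases. Their values were 0 to 1.21 (median 0.0589) and 0.476 to 7.34 (median 0.729) in db/db Unx kidneys at the later age, and no test was made on them.

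The libraries were made from kidney RNA of male mice. The db/m group, heterozygous for the leptin receptor mutation and the lean control, had both kidneys left intact and was sampled at 26 weeks (n = 5) and at 35 weeks (n = 6). The db/db group, obese and diabetic through a leptin receptor mutation, had been uninephrectomized (Unx, 1 kidney removed). It supplied 12 libraries at 26 weeks and 5 at 35 weeks (replicates 01, 02, 03, 05 and 06), and it stands in the study for advanced kidney disease of diabetes. No intact db/db and no operated db/m mice were among the samples, so genotype and surgery cannot be told apart, and the contrast of both is called the disease comparison below. The labels name no batch, so a batch that followed age cannot be told apart from age. Nothing in the labels says that libraries came from separate animals. They were treated as if they did, and the p-values reflect how far libraries scatter within groups, which may be technical. The spread of each gene was estimated jointly over all 4 groups. A p-value at 26 weeks therefore also carries the scatter of the 35-week libraries.

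Interferons are secreted alarm proteins made when a cell senses viral or displaced nucleic acid. Type I interferons act through the IFNAR receptor, which leads a complex that contains STAT2 and IRF9 to a promoter element called the interferon-stimulated response element (ISRE). Type II interferon (interferon gamma) acts through gamma-activated sites (GAS), and the guanylate-binding proteins and immunity-related GTPases are its best-known targets. In the kidney, tubule cells, endothelium and resident macrophages can all respond.

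The library totals corresponded to 21.8 to 30.8 M (M, mega) estimated counts. Tubule and podocyte markers were high in every library (summed value 7289 to 10498 over 10 genes), which matches the labelled tissue. A deposited value is an authors' normalized signal whose scaling is not stated. It was read as estimated counts times 1 scaling factor per library, and the totals in counts rest on that reading. Levels of different genes are compared here only per kilobase of exon. For the genes described here, 1 library stood apart from all others. The db/db Unx 35-week replicate 03 was the highest of the 28 in 41 of the 44 tested members, against 6.39% of all tested genes. It lay at least 1 log2 unit above the other 27 libraries in 27 members, against 0.741% of all genes. Its depth of 30.7 M was within the range of the other libraries. Most results that rest on it are given with and without it, and the medians by promoter match are not.

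The ISRE core searched for was GAAA, any 2 bases and GAAA. The GAS was searched as TTCNNNGAA, where N is any base. Both were searched on both strands, in RefSeq promoter windows of GRCm38.p6 that run from 250 bases before to 50 bases after the annotated start, and matches may overlap. Of the 46 genes, 34 had a window, and 18 of these (52.9%) held the ISRE core, against 3.99% of the 27025 genes with a window. A stricter form, GAAAC, any base and GAAA, was present in 13 members (38.2%) and in 0.792% of all genes. The GAS was present in 10 members (29.4%) and in 9.55% of all genes. A match describes letters only and was not tested as a binding site.

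The 6 windows printed first belong to members that rose at 35 weeks with the smallest adjusted p among those holding the core, and Igtp and Irf1 were added after their values were seen, because both were far higher in 1 library, as were other members whose windows are not printed. Each is written 5′ to 3′ on the strand of its gene, and capitals mark the matches.
Isg15: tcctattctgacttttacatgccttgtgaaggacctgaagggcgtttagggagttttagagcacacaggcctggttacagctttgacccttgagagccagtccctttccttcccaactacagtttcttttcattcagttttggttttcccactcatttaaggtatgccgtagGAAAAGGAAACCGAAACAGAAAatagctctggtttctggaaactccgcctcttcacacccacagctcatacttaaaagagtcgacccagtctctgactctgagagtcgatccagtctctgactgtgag
Ddx58: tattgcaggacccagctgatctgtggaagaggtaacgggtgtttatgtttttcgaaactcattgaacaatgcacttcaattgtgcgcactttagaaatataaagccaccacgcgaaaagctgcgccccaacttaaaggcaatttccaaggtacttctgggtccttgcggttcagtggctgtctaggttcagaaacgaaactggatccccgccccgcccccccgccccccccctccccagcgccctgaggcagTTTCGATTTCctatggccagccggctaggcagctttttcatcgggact
Bst2: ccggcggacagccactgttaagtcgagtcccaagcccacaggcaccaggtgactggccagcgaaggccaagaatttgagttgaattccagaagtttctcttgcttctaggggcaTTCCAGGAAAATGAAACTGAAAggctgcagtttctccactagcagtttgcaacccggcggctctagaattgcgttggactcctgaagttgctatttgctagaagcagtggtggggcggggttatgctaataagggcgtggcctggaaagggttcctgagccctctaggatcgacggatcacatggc
Ifit1: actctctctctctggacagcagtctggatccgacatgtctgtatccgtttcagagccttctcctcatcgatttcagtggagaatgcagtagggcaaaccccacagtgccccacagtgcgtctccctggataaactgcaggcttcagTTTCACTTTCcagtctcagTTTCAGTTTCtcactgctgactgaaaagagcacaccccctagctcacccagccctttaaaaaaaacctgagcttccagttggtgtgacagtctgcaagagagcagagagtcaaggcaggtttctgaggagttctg
Ifitm3: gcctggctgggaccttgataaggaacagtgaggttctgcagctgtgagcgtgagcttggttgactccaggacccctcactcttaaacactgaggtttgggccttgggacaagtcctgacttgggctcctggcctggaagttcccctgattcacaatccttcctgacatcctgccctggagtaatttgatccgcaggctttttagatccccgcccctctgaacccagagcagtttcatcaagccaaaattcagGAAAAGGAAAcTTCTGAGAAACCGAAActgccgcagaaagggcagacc
Gbp3: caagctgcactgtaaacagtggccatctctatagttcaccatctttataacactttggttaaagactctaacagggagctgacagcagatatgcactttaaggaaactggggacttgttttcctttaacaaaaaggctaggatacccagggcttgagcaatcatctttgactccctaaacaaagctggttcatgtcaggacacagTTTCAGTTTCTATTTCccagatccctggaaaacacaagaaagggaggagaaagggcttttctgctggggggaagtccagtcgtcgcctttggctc
Igtp: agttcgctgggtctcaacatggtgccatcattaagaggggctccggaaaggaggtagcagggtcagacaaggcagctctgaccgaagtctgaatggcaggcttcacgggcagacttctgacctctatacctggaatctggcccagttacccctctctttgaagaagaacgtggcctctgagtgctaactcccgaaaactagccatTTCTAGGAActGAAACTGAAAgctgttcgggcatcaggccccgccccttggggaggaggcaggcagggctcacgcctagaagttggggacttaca
Irf1: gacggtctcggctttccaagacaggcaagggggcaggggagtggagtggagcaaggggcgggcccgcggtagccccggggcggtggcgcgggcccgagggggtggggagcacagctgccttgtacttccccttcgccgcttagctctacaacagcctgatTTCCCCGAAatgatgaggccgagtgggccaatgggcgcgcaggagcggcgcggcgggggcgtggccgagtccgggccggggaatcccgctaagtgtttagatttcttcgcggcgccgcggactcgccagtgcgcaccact

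With the first transcribed base counted as 0, the Isg15 window (chr4:156200769-156201068, minus strand) held 3 overlapping ISRE cores that begin at -78, -72 and -66. The Ifit1 window (chr19:34640639-34640938, plus strand) held 2 cores at -104 and -85, which do not overlap. Bst2 (chr8:71537423-71537722, minus strand) carried overlapping cores at -130 and -124 and a GAS at -136 that runs into the first of them. Gbp3 (chr3:142559794-142560093, plus strand) had overlapping cores at -45 and -39. Those of Ddx58 (chr4:40239776-40240075, minus strand), at 2, and of Ifitm3 (chr7:141010695-141010994, minus strand), at 2 and 19, lay just after the start, and the Ifitm3 window also had a GAS at 13. Igtp (chr11:58199306-58199605, plus strand) had a GAS at -45 followed by a core at -34. Irf1 (chr11:53769764-53770063, plus strand) had a GAS at -90 and no ISRE core. All 5 inducible GTPases with a window held the ISRE core, as did 3 of the 4 IFIT genes, and none of the 4 windows of the mixed group described last did.

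In the fit on all 28 libraries, few interferon-stimulated genes were called different between db/db Unx and db/m kidneys at 26 weeks. At 35 weeks 19 were called higher in db/db Unx. The counts at both ages depended on the libraries in the fit. Of the 44 members, 5 were called at 26 weeks (adjusted p below 0.05 over all genes tested), 1 higher and 4 lower, where 34.9% of all genes were called, 17.2% higher and 17.7% lower. The members' shares in this fit were below these. With the 26-week libraries alone 14 were called (34.5% of all genes), a share near the background. Leaving out db/db Unx 35-week replicate 03 gave 16 (35.3% of all genes), also near it. At 35 weeks 20 were called, 19 higher and 1 lower. There 32.3% of all genes were called, 15.9% higher and 16.4% lower. The members' share of calls in this fit, nearly all higher, was above them. With the 35-week libraries alone 10 were called, a share below the 30.5% of all genes. Without db/db Unx 35-week replicate 03, 15 were called, a share near the 29.6% of all genes. Of these calls 9 and 14 were higher, where 14.8% and 14.4% of all genes were. The median log2 difference of the members was -0.17 at 26 weeks and 0.79 at 35 weeks, against 0.02 and 0.01 over all tested genes. At 35 weeks 40 of the 44 differences were positive. Bulk values cannot tell fewer cells of a type from less RNA per cell.

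**Figure D1:**
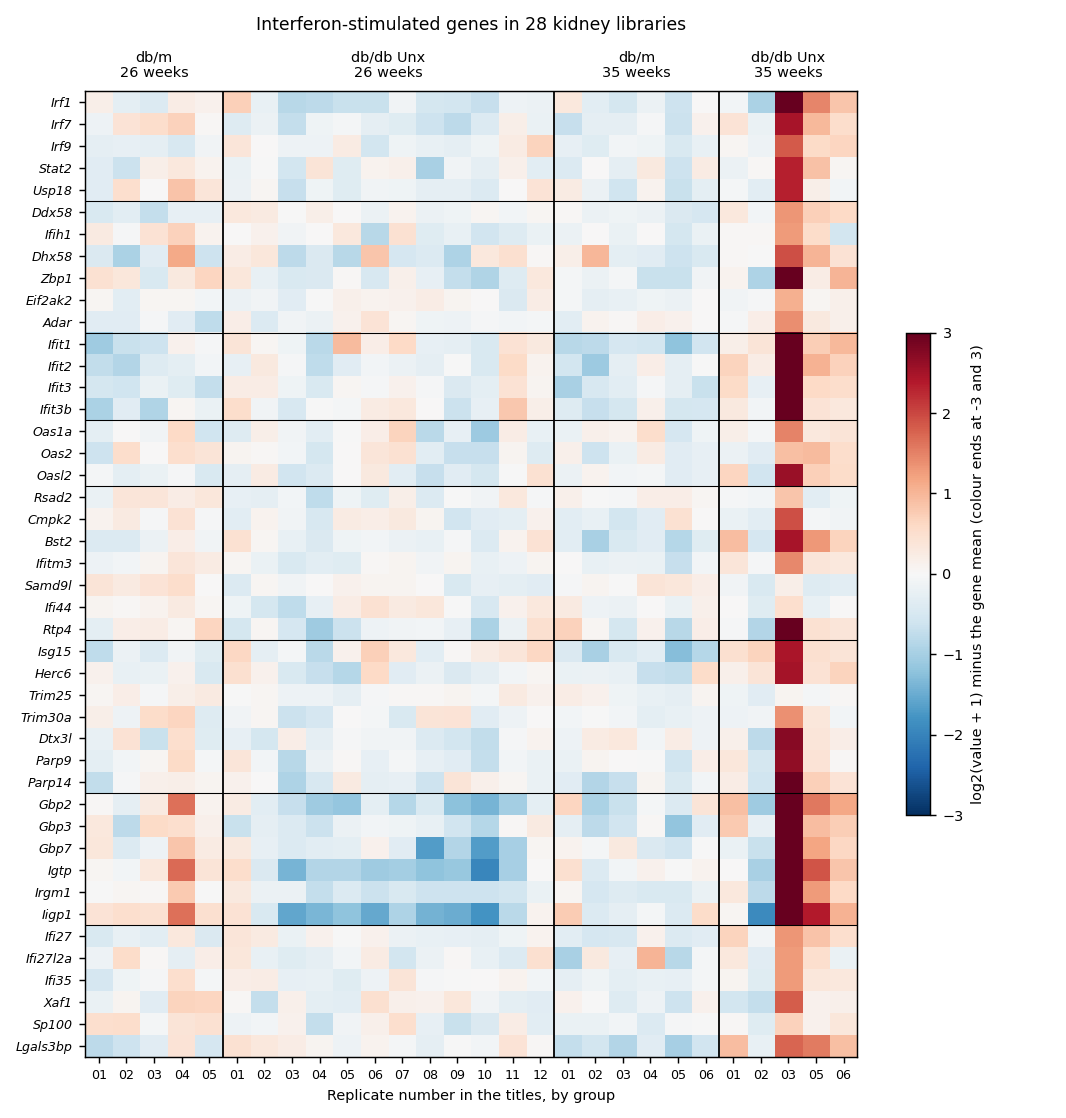
Heat map of the 44 tested members (rows, grouped by role) in the 28 libraries (columns, by group and replicate number). Colour shows log2(value + 1) minus the mean of that gene over the 28 libraries. The db/db Unx 35-week replicate 03 is the highest library in 41 of the 44 members, and replicate 02 of that group is the lowest of its 5 libraries in 35.

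Inside the db/db Unx group at 35 weeks the libraries ranged widely. A member score, the mean over the 44 genes of log2(value + 1) minus the gene mean, was 0.19, -0.34, 2.47, 0.64 and 0.39 in replicates 01, 02, 03, 05 and 06. In db/m at 35 weeks the score ran from -0.45 to -0.07. Replicate 03 was far above the other 4, and replicate 02 lay among the db/m libraries. Replicate 02 was at or under the highest db/m library in 38 of the 44 members and under the lowest in 16. Leaving both out, the remaining 3 libraries were all above every db/m library in 20 members, where 11.9% of all genes were. With replicate 02 put back that number was 4 (9.03% of all genes). Both libraries were picked for their values. Those 4, Ifit1, Ifit2, Isg15 and Lgals3bp, were higher in db/db Unx without overlap over all 5 libraries too, where 7.84% of all genes were higher without overlap. None was lower without overlap, where 10.3% of all genes were. At 26 weeks 1 member, Ddx58, was higher without overlap (5.11% of all genes) and 0 were lower (7.68%).

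Without replicate 03, 15 members were called at 35 weeks, 14 higher and 1 lower, all of them among the 20, and 29.6% of all genes were called. These were also the 15 that stayed called whichever single library was left out. The members' median was 0.40. The 5 that were lost were Gbp2, Ifi35, Irgm1, Oasl2 and Parp14. Without replicate 02 instead, 30 were called, 29 higher and 1 lower, with a median of 1.00 and 30.9% of all genes called. Without both, 21 were called, 20 higher and 1 lower, with a median of 0.63 and 27.3% of all genes called.

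The regulators of the response are 4 transcription factors and the protease USP18, which removes ISG15 from proteins and restrains receptor signalling. Of the 5, 2 rose at 35 weeks (Irf7 and Irf9) and 1 fell at 26 weeks (Irf7). Irf7 (ENSMUSG00000025498, chr7:141262706-141266481, minus strand) amplifies the type I interferon response. Its values in db/m at 26 weeks were 6.41, 10.0, 10.9, 12.5 and 7.51, and in db/db Unx they ran from 3.83 to 8.39 (median 5.61). The groups overlapped, and the log2 difference was -0.63 (SE 0.25, adjusted p = 0.0459). That call was lost in 14 of the 28 fits that each left out 1 library, with adjusted p between 0.00368 and 0.137. At 35 weeks Irf7 was 9.93, 6.15, 44.6, 15.3 and 10.8 in db/db Unx, in replicate order, and 4.11 to 8.03 (median 5.87) in db/m. All but replicate 02 exceeded every db/m library, with a difference of 1.13 (SE 0.28, adjusted p = 0.00206) and of 0.72 (SE 0.21, adjusted p = 0.00721) without replicate 03. Fitted on the 35-week libraries alone, Irf7 was not called (adjusted p = 0.0586).

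Irf9, the DNA-binding partner of STAT2, was 14.9, 12.7, 53.8, 21.8 and 22.8 in 35-week db/db Unx kidneys and 10.2 to 13.4 (median 11.9) in db/m. Replicate 02 again fell inside the control range. Its difference of 0.85 (SE 0.22, adjusted p = 0.00347) became 0.53 (SE 0.17, adjusted p = 0.0149) without replicate 03. Irf1 (ENSMUSG00000018899, chr11:53770014-53778374, plus strand), a factor induced directly by interferon gamma, showed the widest spread of the 5. Its 35-week db/db Unx values were 18.6, 9.8, 609, 56.5 and 36, against 12.6 to 25 (median 16.6) in db/m. Replicate 03 was 20.1 times the mean of the other 4, and the group difference of 1.44 (SE 0.59, adjusted p = 0.0645) missed the threshold. Without replicate 02 Irf1 was called (1.98, adjusted p = 0.00756), and without replicate 03 it was not (0.53, adjusted p = 0.259). Stat2 had 0.75 (adjusted p = 0.0749) and was not called. Usp18 was 2.96, 2.3, 19.7, 3.65 and 2.92 in db/db Unx and 1.59 to 3.89 (median 2.51) in db/m, where only replicate 03 left the control range (0.64, adjusted p = 0.105).

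**Figure D2:**
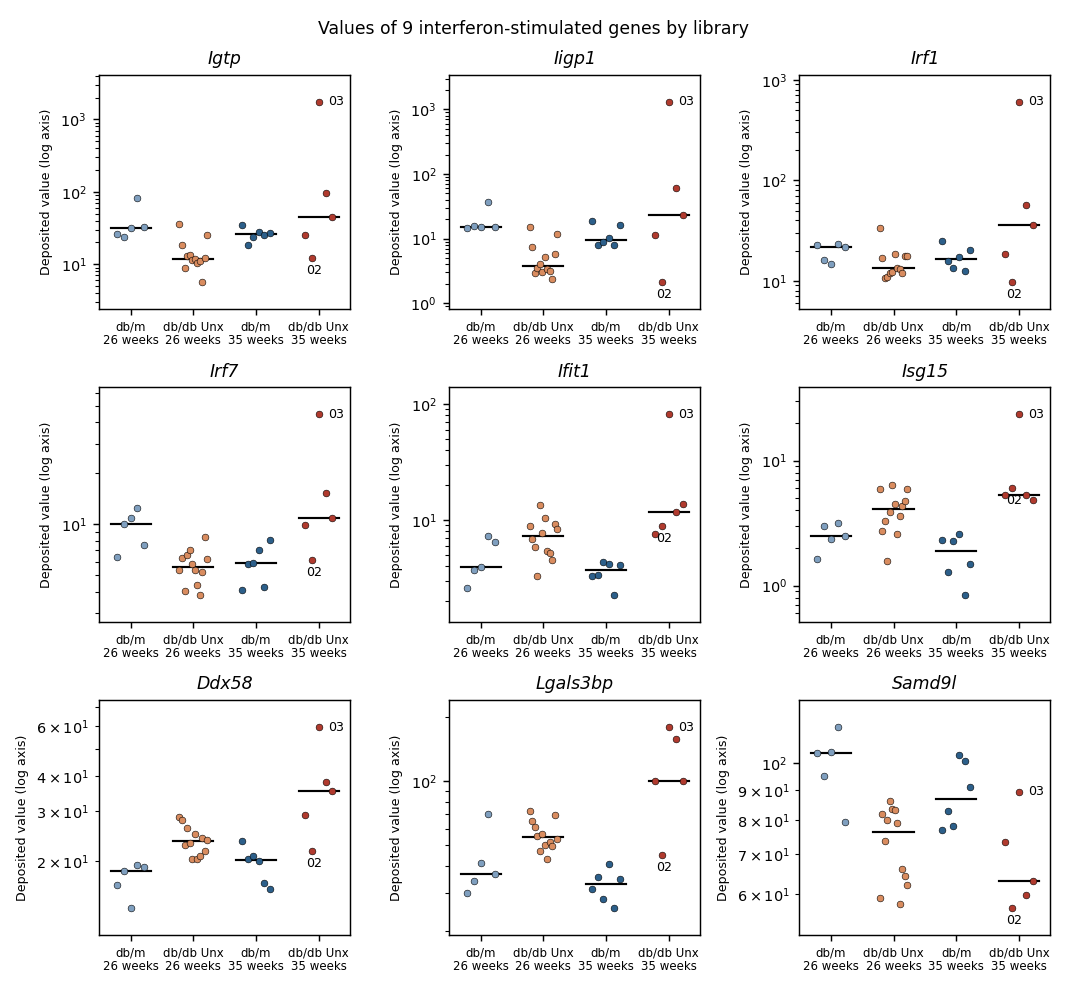
Deposited values of 9 members (log axes), 1 point per library, in the 4 groups, with the group median as a line. Replicates 02 and 03 of db/db Unx at 35 weeks are marked. Igtp in replicate 03 is 1768 against 12.2 to 95.6 in the other 4 libraries of its group, and Samd9l runs lower in db/db Unx at both ages.

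Among the 6 sensors of foreign or displaced nucleic acid, 1 rose at each age, and it was the same gene. Ddx58 (ENSMUSG00000040296, chr4:40203773-40239828, minus strand) encodes RIG-I, the cytosolic sensor of uncapped double-stranded RNA ends. In db/m at 26 weeks its values were 16.5, 18.4, 13.7, 19.3 and 19.1, and in db/db Unx 20.3 to 28.7 (median 23.5). Every db/db Unx library was above every db/m library at that age, though only narrowly where they came closest (20.3 against 19.3). The log2 difference of the group means was 0.43 (SE 0.13, adjusted p = 0.00904). At 35 weeks the db/db Unx values were 29, 21.8, 59.4, 38.2 and 35.4 and those of db/m 16 to 23.5 (median 20.2), with replicate 02 inside the control range. The difference was 0.81 (SE 0.15, adjusted p = 4.04e-05), and 0.62 (SE 0.13, adjusted p = 0.000287) without replicate 03. In the 28 fits that each left out 1 library Ddx58 stayed called at both ages, with adjusted p up to 0.0483 at 26 weeks and 0.000287 at 35 weeks.

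The other 5 sensors were not called in either disease comparison. Ifih1, which encodes MDA5, a sensor of long double-stranded RNA, had -0.44 at 26 weeks (adjusted p = 0.0811) and 0.45 at 35 weeks (adjusted p = 0.131). Zbp1, a sensor of Z-form nucleic acid that can trigger necroptosis, had a 35-week difference of 0.97 (SE 0.39, adjusted p = 0.0551). Its values were 1.35, 0.159, 16.6, 1.56 and 3.43 in db/db Unx and 0.372 to 1.12 (median 0.984) in db/m, with replicate 02 under the controls and the other 4 above them. Its difference became 0.39 (adjusted p = 0.319) without replicate 03. Eif2ak2, the kinase PKR that halts translation on double-stranded RNA, was 7.76, 8.18, 18.7, 8.84 and 9.55 in the same libraries and 6.88 to 8.52 (median 7.46) in db/m, where replicates 03, 05 and 06 were above all 6 controls and only replicate 03 by a wide margin (difference 0.37, adjusted p = 0.0713). Adar, which edits adenosine to inosine in double-stranded RNA, was 15.7, 18.6, 43.7, 19.9 and 18.1, against 12.7 to 18.5 (median 17) in db/m. Replicates 02, 03 and 05 were above all controls, 02 and 05 only slightly (difference 0.37, adjusted p = 0.0888). Dhx58 (LGP2) was low throughout, at 1.15 to 7.37 (median 1.92) in db/db Unx at 35 weeks, and had 0.77 (adjusted p = 0.122).

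The IFIT genes lie side by side on chromosome 19 and encode proteins that bind viral RNA and block its translation. All 4 rose at 35 weeks, with and without replicate 03, and all 4 had positive differences at 26 weeks, where none was called. The family's median log2 difference was 0.49 at 26 weeks and 1.51 at 35 weeks, or 0.91 without replicate 03. Ifit1 (ENSMUSG00000034459, chr19:34640871-34650009, plus strand) was 2.59, 3.72, 3.95, 7.25 and 6.39 in db/m at 26 weeks and 3.3 to 13.6 (median 7.27) in db/db Unx. Those groups overlapped (difference 0.54, SE 0.35, adjusted p = 0.253). At 35 weeks it was 7.6, 8.89, 81.6, 11.7 and 13.8 in db/db Unx and 2.27 to 4.35 (median 3.73) in db/m. Here no values overlapped, replicate 02 included, and the difference was 1.89 (SE 0.40, adjusted p = 0.000541), or 1.31 (SE 0.26, adjusted p = 0.000115) without replicate 03.

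Ifit2 (ENSMUSG00000045932, chr19:34550694-34576419, plus strand) was 11, 7.78, 67.1, 14.6 and 11.2 in 35-week db/db Unx kidneys and 2.53 to 7.59 (median 5.24) in db/m, also without overlap. Its difference was 1.501 (SE 0.34, adjusted p = 0.000886), or 1.00 (adjusted p = 0.000653) without replicate 03. For Ifit3 the db/db Unx values were 32.8, 18, 329, 32.9 and 31.7 and the db/m values 10.5 to 21 (median 16.2). Replicate 02 overlapped the controls, and the difference of 1.52 (SE 0.42, adjusted p = 0.00682) became 0.82 (adjusted p = 0.000355) without replicate 03. Its near-copy Ifit3b followed with 1.27 (SE 0.40, adjusted p = 0.0148). Reads of Ifit3 and Ifit3b could be split between the copies by the authors' counting, so their separate values are uncertain. When only the 11 libraries of 35 weeks were fitted, with replicate 03 included, Ifit1 and Ifit2 stayed called (of 10 members in all, with 30.5% of all genes) and Ifit3 and Ifit3b did not (adjusted p = 0.116 and 0.124).

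The OAS genes encode enzymes that make 2′-5′-linked oligoadenylates and so activate RNase L, and their expression in these kidneys was low. Of the 3 tested, only Oasl2 was called, at 35 weeks. Its db/db Unx values were 10.3, 3.85, 42, 10.8 and 9.48 and its db/m values 4.67 to 6.7 (median 5.56). Replicate 02 was under all 6 control libraries and the other 4 were above them. The difference was 0.92 (SE 0.30, adjusted p = 0.0188), and it missed the threshold without replicate 03 (0.47, adjusted p = 0.102). Oas1a, which has near-identical neighbours, was 2.98, 2.4, 8.84, 3.35 and 3.61 in db/db Unx and 1.48 to 4.1 (median 2.51) in db/m (difference 0.47, adjusted p = 0.185). Oas2 was the lowest of all 44 per kilobase of exon. Its highest library was not replicate 03 but replicate 05, at 2.12 against 2.02.

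Other antiviral effectors did not move as 1 block. Of 7 tested, Bst2 and Ifitm3 rose at 35 weeks, Samd9l fell at both ages and Rsad2 fell at 26 weeks. Bst2 (ENSMUSG00000046718, chr8:71534255-71537456, minus strand) encodes tetherin, which holds budding virions at the cell surface. Its values were 25.7, 8.97, 78.4, 34.2 and 21.4 in 35-week db/db Unx kidneys and 6.21 to 10.4 (median 9.63) in db/m, and replicate 02 lay inside the control range. The difference was 1.52 (SE 0.30, adjusted p = 0.000227), or 1.15 (SE 0.23, adjusted p = 0.000165) without replicate 03. At 26 weeks it was 0.12 (adjusted p = 0.767).

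Ifitm3 (ENSMUSG00000025492, chr7:141009586-141010770, minus strand) encodes a membrane protein that blocks viral fusion, and it was the most highly expressed of the 44 per kilobase. In db/db Unx at 35 weeks it was 64.9, 48.6, 138, 64.5 and 62.6, and in db/m 30.5 to 50.4 (median 43.8). Replicate 02 lay inside the control range. The difference was 0.72 (SE 0.17, adjusted p = 0.00194), and 0.48 (SE 0.12, adjusted p = 0.00252) without replicate 03. At 26 weeks the db/m mean was 53.8 ± 8.27 (SD, n = 5) and the db/db Unx mean 46.2 ± 6.04 (SD, n = 12), a difference of -0.21 that limma did not call (adjusted p = 0.301).

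Samd9l (ENSMUSG00000047735, chr6:3372257-3399572, minus strand), a restriction factor and growth-suppressing gene of the SAMD9 family, was the 1 member that fell at 35 weeks. It was 104, 95, 104, 115 and 79.4 in db/m at 26 weeks and 57.6 to 86.2 (median 76.4) in db/db Unx. At 35 weeks it was 73.4, 56.9, 89.4, 59.7 and 63.2 in db/db Unx and 77.1 to 103 (median 86.9) in db/m. The groups overlapped at both ages, at 35 weeks through replicate 03, and the differences were -0.44 (SE 0.10, adjusted p = 0.00107) and -0.38 (SE 0.12, adjusted p = 0.0133). Both calls held whichever single library was left out, the 35-week call only just. Its adjusted p rose to 0.04999 without db/db Unx replicate 02, and that of the 26-week call was at most 0.00776. Samd9l was also 1 of the 3 members in which replicate 03 was not the highest of the 28 libraries, with Oas2 and Trim25.

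Rsad2 encodes viperin, which makes a chain-terminating nucleotide, and Cmpk2 is its divergent neighbour on chromosome 12. In db/m at 26 weeks Rsad2 was 26.7, 39.6, 39.8, 36.1 and 38.8, and in db/db Unx 17.7 to 38.1 (median 28.3). The ranges overlapped, and the difference of -0.38 (SE 0.14, adjusted p = 0.0323) was lost in 4 of the 28 fits that left out 1 library, each time a db/m library of that age (adjusted p up to 0.0851). At 35 weeks Rsad2 was 30.0, 28.7, 54.8, 24.3 and 28 in db/db Unx and 29.8 to 35 (median 32.8) in db/m, so that replicate 03 was above all controls and the other 4 were at or under the control median. Cmpk2 was 11, 10.2, 51.5, 12.3 and 11.9 in db/db Unx and 8.46 to 18 (median 10.4) in db/m, so that only replicate 03 left the control range (difference 0.41, adjusted p = 0.27). Ifi44 and Rtp4 were not called at either age. Rtp4 was 70.9 in replicate 03 and 2.46 to 7.78 in the other 4.

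The ISG15, ubiquitin and poly(ADP-ribose) polymerase genes contributed 3 of the 35-week calls, Isg15, Herc6 and Parp14, and none at 26 weeks. Isg15 (ENSMUSG00000035692, chr4:156199424-156200818, minus strand) is a ubiquitin-like protein that is attached to newly made proteins and also secreted. It was 1.63, 2.99, 2.36, 3.19 and 2.47 in db/m at 26 weeks and 1.57 to 6.32 (median 4.12) in db/db Unx. At 35 weeks it was 5.26, 6.07, 23.4, 5.27 and 4.85 in db/db Unx and 0.846 to 2.59 (median 1.89) in db/m, without overlap. Here replicate 02 was the second highest of its group. The 35-week difference was 1.61 (SE 0.28, adjusted p = 2.48e-05), or 1.22 (SE 0.24, adjusted p = 9.71e-05) without replicate 03.

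Herc6, the main ligase that attaches ISG15 in mice, was 4.69, 5.68, 27.7, 5.89 and 7.14 in 35-week db/db Unx kidneys and 2.05 to 6.41 (median 3.42) in db/m. Replicates 01, 02 and 05 were inside the control range, and the difference was 1.08 (SE 0.30, adjusted p = 0.00533), or 0.66 (adjusted p = 0.0344) without replicate 03. Fitted on the 35-week libraries alone, Herc6 was not called (adjusted p = 0.0574). Parp14, a mono-ADP-ribosyltransferase, was 7.86, 4.05, 98.1, 11.5 and 9.15, against 3.15 to 7.06 (median 4.77) in db/m. Its difference of 1.29 (SE 0.45, adjusted p = 0.0299) was not called without replicate 03 (0.58, adjusted p = 0.0659), and it was also lost without replicate 02 or 03 of db/m at 35 weeks, with adjusted p up to 0.0659 over these fits. The neighbours Parp9 and Dtx3l, whose proteins form 1 complex, had 0.66 (adjusted p = 0.146) and 0.47 (adjusted p = 0.357). Trim25, a ligase that activates RIG-I, had the highest level of the 7 per kilobase of exon. It was 51.7, 44.6, 59.7, 54.2 and 57.7 in 35-week db/db Unx kidneys and 46.6 to 66.4 (median 55.5) in db/m, with replicate 03 inside the control range, and it was not called at either age (-0.13 and -0.05).

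The interferon-inducible GTPases had the highest median fold of replicate 03 over its group among the 8 roles. They are large and small GTPases that coat and break the vacuoles of intracellular pathogens, and they are strong targets of interferon gamma. At 26 weeks all 6 had negative differences, with a median of -0.89, and none was called. At 35 weeks all 6 had positive differences, with a median of 1.59, and Gbp2, Gbp3 and Irgm1 were called. In replicate 03 they stood at 9.95 to 54.4 times the mean of the other 4 libraries of the group, with a median of 25.8, against 6.02 to 11.4 times in the IFIT family.

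Irgm1 (ENSMUSG00000046879, chr11:48861968-48871683, minus strand), a regulator of the other immunity-related GTPases, was 108, 50.1, 2065, 213 and 131 in 35-week db/db Unx kidneys and 60.4 to 90.2 (median 64.7) in db/m. Replicate 02 was under every control and the other 4 were above all of them. The difference was 1.52 (SE 0.52, adjusted p = 0.0269). It was 0.68 (SE 0.26, adjusted p = 0.0533) without replicate 03 and was lost also without replicate 05 (adjusted p = 0.0517). Gbp2 (ENSMUSG00000028270, chr3:142620602-142638008, plus strand), a guanylate-binding protein that lyses pathogen vacuoles, was 15.3, 3.22, 329.9, 25.4 and 18.5 and 3.55 to 12.6 (median 6.51). Its difference was 1.74 (SE 0.65, adjusted p = 0.0413), and 7 of the 28 fits that left out 1 library lost the call (adjusted p up to 0.167, without replicate 03).

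Gbp3 (ENSMUSG00000028268, chr3:142560026-142573209, plus strand) was the 1 GTPase still called at 35 weeks without replicate 03. It was 11.4, 5.08, 99.6, 12.6 and 10.9 in db/db Unx and 2.16 to 6.35 (median 4.24) in db/m, so that all but replicate 02 were above the controls. The difference was 1.72 (SE 0.43, adjusted p = 0.00275), or 1.07 (SE 0.25, adjusted p = 0.00105) without replicate 03. Fitted on the 35-week libraries alone it was not called (adjusted p = 0.0683). The values of the remaining 3 were singled out after they were seen. Igtp (ENSMUSG00000078853, chr11:58199556-58207591, plus strand), also known as Irgm3, was 25.4, 12.2, 1768, 95.6 and 45.4 in db/db Unx and 18.7 to 35.4 (median 25.9) in db/m (difference 1.53, SE 0.75, adjusted p = 0.125). Iigp1, the effector GTPase Irga6, was 11.2, 2.14, 1321, 60.7 and 23.1 and 7.85 to 19 (median 9.46) (difference 1.65, SE 0.88, adjusted p = 0.162). Gbp7 was 6.32, 4.33, 310.5, 18.2 and 12 and 4.67 to 9.41 (median 7.24) (difference 1.34, SE 0.65, adjusted p = 0.123). In these 3 replicate 03 exceeded every other library by more than an order of magnitude, replicate 02 lay under every control and replicate 01 inside the control range. Several of these genes have close paralogs whose reads may be shared.

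At 26 weeks the differences of the same GTPases were negative and missed the threshold. Igtp was 26, 23.6, 31.4, 83.3 and 33.2 in db/m and 5.73 to 36.3 (median 11.9) in db/db Unx. Iigp1 was 14.6, 15.7, 15.1, 36.2 and 15.3 and 2.4 to 14.9 (median 3.82). Gbp2 was 7.99, 6.28, 9.6, 26.5 and 8.45 and 2.32 to 9.34 (median 4.14). In each the db/m replicate 04 was well above the other controls, and the groups overlapped. The differences were -1.34 (SE 0.66, adjusted p = 0.119), -1.70 (SE 0.77, adjusted p = 0.0905) and -1.07 (SE 0.57, adjusted p = 0.152), and that of Irgm1 was -0.58 (SE 0.46, adjusted p = 0.356). The differences are the same numbers when replicate 03 of the 35-week group is left out, but the spread shared by the 4 groups is then smaller, and Igtp, Iigp1, Gbp2 and Irgm1 were called lower (adjusted p = 0.0064, 0.00553, 0.0206 and 0.0398). Fitted on the 26-week libraries alone the same 4 were called (adjusted p = 0.00658, 0.000603, 0.00297 and 0.00798). With the db/m replicate 04 left out of the fit on the other 27 libraries, the differences were -1.04, -1.46, -0.75 and -0.43. None of them was called (4 members were called in that fit, with 31% of all genes). That fit still held replicate 03 of the 35-week db/db Unx group. Without both libraries, a choice made after seeing the data, 14 members were called, 8 higher and 6 lower, with 31.2% of all genes called.

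Over all members at 26 weeks, leaving out replicate 03 raised the calls from 5 to 16, 6 higher and 10 lower, with 35.3% of all genes called. The 6 higher were Ddx58, Adar, Ifit1, Ifit3, Ifit3b and Isg15. The 10 lower were Irf7, Usp18, Ifih1, Rsad2, Samd9l, Sp100, Gbp2, Igtp, Irgm1 and Iigp1. The fit on the 26-week libraries alone gave 14 calls, 13 of them shared with the 16, and 34.5% of all genes. Both shares of the members (16 and 14 of 44) were near that background. Without the db/m replicate 02, 3 members were called, with 32.2% of all genes.

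**Figure D3:**
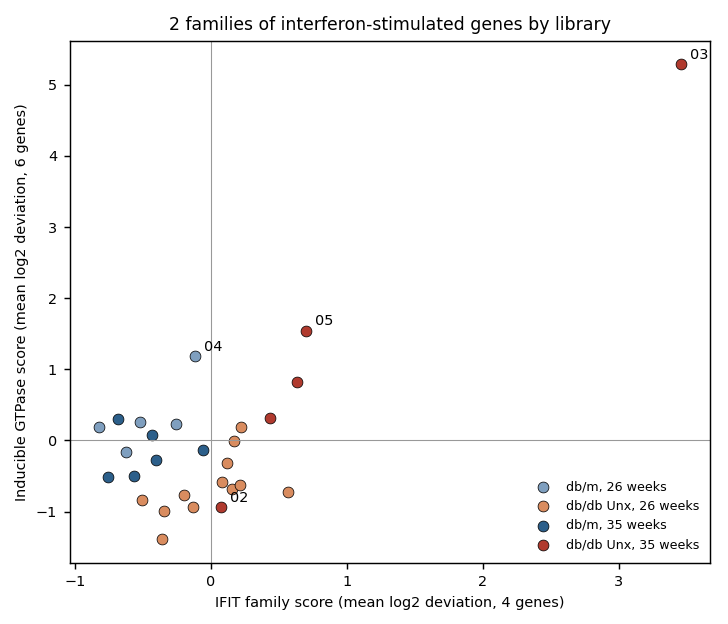
Scores of the IFIT family (4 genes, x axis) and of the interferon-inducible GTPases (6 genes, y axis) in the 28 libraries, each the mean of log2(value + 1) minus the gene mean. At 26 weeks the db/db Unx libraries have GTPase scores of -1.38 to 0.18 and the db/m libraries -0.16 to 1.18, while IFIT scores are -0.51 to 0.56 and -0.83 to -0.12, and replicate 03 of db/db Unx at 35 weeks is at 3.46 and 5.29.

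The remaining 6 members have mixed roles. Lgals3bp (ENSMUSG00000033880, chr11:118392751-118402092, minus strand) encodes a secreted galectin-3-binding glycoprotein, and it had the smallest adjusted p of the 44 at 35 weeks. It was 100.1, 45.1, 178, 157 and 99.8 in db/db Unx and 25.6 to 41 (median 33) in db/m, without overlap. The difference was 1.67 (SE 0.25, adjusted p = 6.89e-06), or 1.48 (SE 0.24, adjusted p = 3.56e-05) without replicate 03. At 26 weeks the db/m values were 29.9, 34, 41.6, 70.0 and 36.8 and the db/db Unx values 43.4 to 72.2 (median 54.7), with a difference of 0.45 (adjusted p = 0.113). Without the db/m replicate 04 that difference was called (0.64, adjusted p = 0.0253).

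Ifi27, a mitochondrial protein gene, was 77, 44.8, 121, 87.5 and 68.6 in 35-week db/db Unx kidneys and 33.3 to 52.1 (median 36.8) in db/m. Only replicate 02 fell inside the control range. The difference was 0.97 (SE 0.18, adjusted p = 9.16e-05), or 0.81 (SE 0.16, adjusted p = 0.000298) without replicate 03. Its neighbour and paralog Ifi27l2a had 0.45 (adjusted p = 0.23). Ifi35, which binds the regulator NMI, had 0.54 (SE 0.18, adjusted p = 0.0214) and was not called without replicate 03 (adjusted p = 0.131). Sp100, a nuclear body protein, was 12.2, 12.4, 8.0, 11.2 and 11.9 in db/m at 26 weeks and 4.71 to 12.3 (median 7.51) in db/db Unx, a difference of -0.51 (SE 0.16, adjusted p = 0.0124) that stayed called whichever library was left out. At 35 weeks it had 0.33 (adjusted p = 0.18). Xaf1, a pro-apoptotic gene, was not called at either age.

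**Figure D4:**
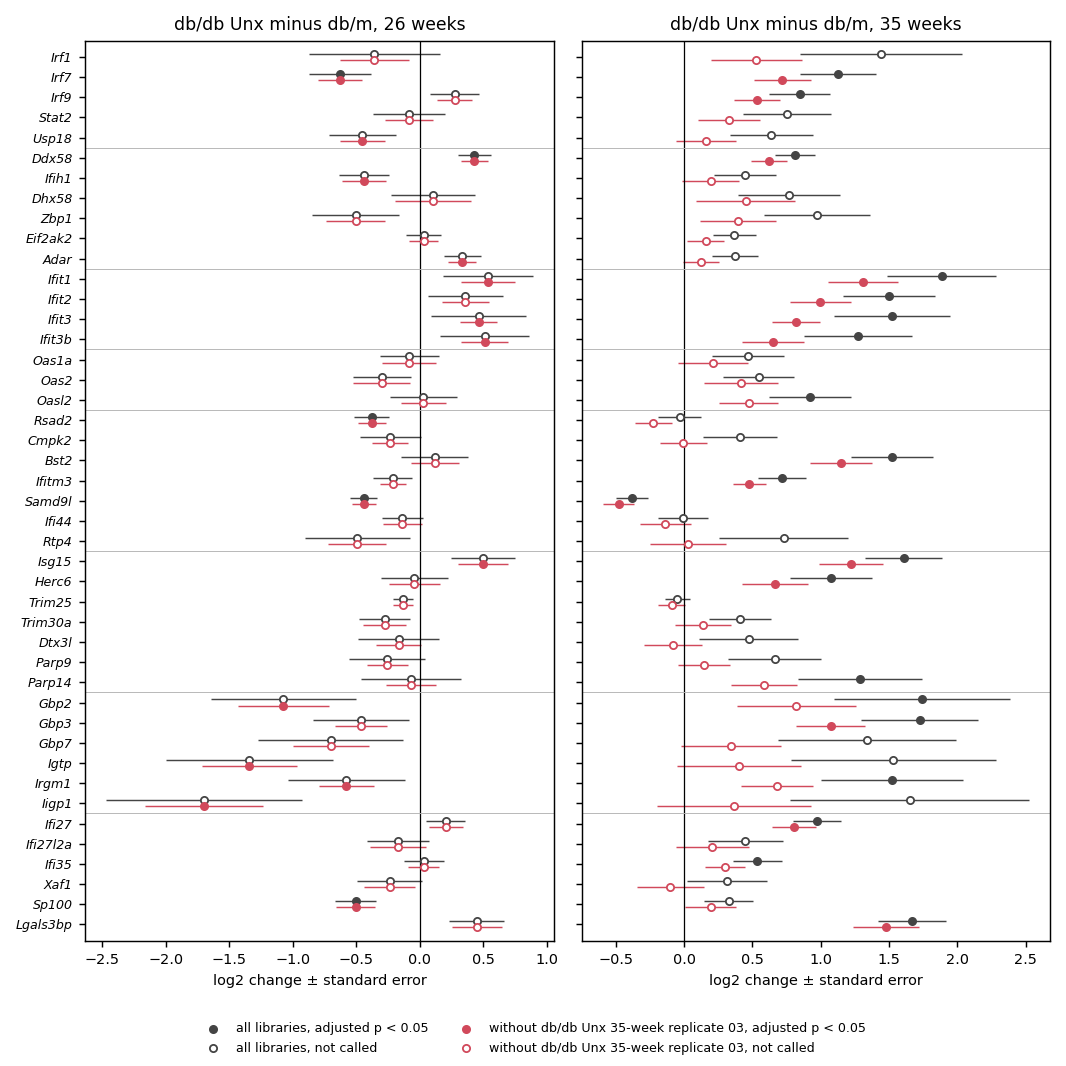
Log2 difference of db/db Unx minus db/m at 26 weeks (left) and 35 weeks (right) for the 44 tested members, with standard errors, from the fit on all 28 libraries and from the fit without db/db Unx 35-week replicate 03. Filled points have adjusted p below 0.05. The 26-week differences do not change between the fits while their standard errors shrink, and the 35-week median goes from 0.79 to 0.40.

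From 26 to 35 weeks in db/db Unx, 19 members rose and none fell, where 11.3% of all genes were called, 5.16% higher and 6.14% lower. The median difference of the 44 was 0.78, against 0.0047 over all tested genes. All 6 GTPases were among the 19, though 4 of these calls depended on the libraries in the fit. The Gbp7 call (1.76, adjusted p = 0.0471) was lost in 23 of the 28 fits that left out 1 library, Iigp1 in 2 (without replicate 03 or 05), and Igtp and Irgm1 in 1 each (without replicate 05). Fitted on the db/db Unx libraries alone, 10 members were called, with 10.5% of all genes, and Irgm1, Igtp, Iigp1 and Gbp7 were not among them (adjusted p = 0.0844, 0.0648, 0.0853 and 0.128). The smallest adjusted p belonged to Irf7 (1.15, SE 0.25, adjusted p = 0.00287). Ifit2 rose by 1.28 (SE 0.30, adjusted p = 0.00588), Ifi27 by 0.68 (SE 0.16, adjusted p = 0.00611) and Ddx58 by 0.54 (SE 0.13, adjusted p = 0.00618). Lgals3bp rose by 0.90 (SE 0.22, adjusted p = 0.00883) and Ifitm3 by 0.61 (SE 0.15, adjusted p = 0.0101). Without replicate 03, 10 members were called (7.62% of all genes), with a median of 0.36. The 9 that were lost were Ddx58, Gbp7, Herc6, Ifit1, Iigp1, Irf1, Irf9, Isg15 and Oasl2. Iigp1 went from 2.68 to 1.39 (adjusted p = 0.0943), Gbp7 from 1.76 to 0.76 (adjusted p = 0.16), and Ddx58 had an adjusted p of 0.0558. Without replicate 05, 9 were called (4.69%), and without replicate 02, 30 (13%). The 6 that stayed called whichever library was left out were Gbp2, Gbp3, Ifi27, Ifit2, Ifitm3 and Irf7.

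In db/m, limma called none of the 44 between the ages, where 7.4% of all genes were called (2.73% higher, 4.68% lower). An unadjusted p below 0.05 was found in 4 members, and the share of all genes with one was not counted. The median was -0.21, against 0.015 over all tested genes, and 10 of the 44 differences were positive. Without replicate 03 of db/db Unx, Adar was called higher (0.39, adjusted p = 0.0486), with 7.29% of all genes called.

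The interaction asks whether the disease difference at 35 weeks differed from that at 26 weeks. It was positive in all 44 members, with a median of 0.89, against -0.0046 over all tested genes. This comparison shares its libraries with the disease and age comparisons above. The limma fit called 1 member, Irf7, with an interaction of 1.76 (SE 0.37, adjusted p = 0.0273), where 0.548% of all genes were called (0.393% higher, 0.156% lower). An unadjusted p below 0.05 was found in 25 members, and the share of all genes with one was not counted. The Irf7 call was lost without replicate 02 or 04 of db/m at 26 weeks or replicate 05 of db/db Unx at 35 weeks (adjusted p = 0.0528, 0.0617 and 0.058). Without replicate 03, Irf7, Gbp3 and Ifitm3 were called (0.267% of all genes) and the median was 0.56. Without replicate 02, 11 were called (1.85%), with a median of 1.04.

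Per kilobase of exon, Ifitm3 had the highest mean level of the 44 over all libraries (76.9 per kilobase), then Igtp (43.8), Ifi27 (34.3), Irgm1 (26.3) and Lgals3bp (20.9). The means of Igtp and Irgm1 include replicate 03, and their group medians per kilobase were 5.90 to 22.4 and 10.4 to 22.6. The median level of Ifitm3 was 64.6 to 95.1 over the 4 groups. Oas2 was the lowest, at 0.157 per kilobase.

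The other genes of the pathway were taken from a list of receptors, kinases, transcription factors, sensors and inhibitors. Of the 28 tested, 3 rose and 3 fell at 26 weeks, and 8 rose and 1 fell at 35 weeks. Against the 34.9% and 32.3% of all genes called at these ages, the pathway's share was below the background at 26 weeks. At 35 weeks it was near the background in both directions together. By direction, the 8 that rose were a larger share than the 15.9% of all genes called higher. The 1 that fell was a smaller share than the 16.4% called lower. Without replicate 03, Irf2 (adjusted p = 0.0516) and Samhd1 (adjusted p = 0.0866) were no longer among the 8. Socs1, an inhibitor of the receptor kinases that interferon gamma induces, was singled out after its values were seen, at 26.4 in replicate 03 and 0.766 to 1.35 in the other 4.

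Upstream of interferon, Mavs, the adaptor on which RIG-I and MDA5 signal, rose at both ages, by 0.55 (SE 0.07, adjusted p = 3.76e-08) and 0.46 (SE 0.08, adjusted p = 1.2e-05). Tmem173, which encodes STING, was 5.33, 2.26, 6.98, 8.31 and 4.88 in 35-week db/db Unx kidneys and 1.08 to 3.13 (median 1.79) in db/m, and rose by 1.08 (SE 0.29, adjusted p = 0.00426), or 0.99 (adjusted p = 0.0154) without replicate 03. Trex1, the nuclease that clears cytosolic DNA, rose by 0.74 (SE 0.20, adjusted p = 0.00408). Irf5, a factor of myeloid inflammatory responses, was below every db/m library at both ages, with differences of -1.59 (SE 0.17, adjusted p = 1.99e-09) and -1.06 (SE 0.20, adjusted p = 5.24e-05). Of the receptor chains, Ifngr1 rose at both ages (0.27 and 0.35) and Ifngr2 at 35 weeks (0.36, SE 0.10, adjusted p = 0.00525). Socs3, an inhibitor induced by interleukin-6 type cytokines, rose at both ages (0.62 and 1.43). Ptpn6 and Jak1 fell slightly at 26 weeks (-0.34 and -0.14, adjusted p = 0.0107 and 0.041). None of the 9 interferon genes listed had a row under its symbol in the deposited values, so none was analysed here.

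Markers of immune cells were measured beside these results. The summed value of 12 macrophage and monocyte markers was 149 to 581 (median 478) in 35-week db/db Unx kidneys and 136 to 225 in db/m. Replicate 03 was the highest (581) and replicate 02 the lowest (149), and the highest of the other libraries was 499.6. Much of the sum was Lyz2, the lysozyme of myeloid cells, at 106, 60.5, 331, 279 and 269 in replicates 01, 02, 03, 05 and 06. Of the 12 genes, 5 rose at 35 weeks, where 15.9% of all genes were called higher, and these were Lyz2, C1qa, C1qb, C1qc and Itgam. Csf1r, the receptor that macrophages need to survive, was 22.8, 22.4, 36.3, 31.9 and 32.6, against 26.8 to 35.5 in db/m, and was not called (-0.16, adjusted p = 0.447). Mrc1, a marker of resident macrophages, was lowest of its group in replicate 03, at 0.362. The part of these cells in the result was not tested. The sum of B and plasma cell markers (5 genes) went the other way, at 1.99 to 11.3 (median 3.45) in db/db Unx and 12.3 to 56.5 (median 32.3) in db/m at 26 weeks. Much of it was Jchain, at 1.41 to 9.85 in db/db Unx and 8.87 to 52.3 in db/m at that age. At 35 weeks the sum was 6.37 to 20.2 (median 7.46) in db/db Unx and 11.7 to 24.1 (median 20.1) in db/m, and replicate 03 had 6.88. Mzb1, another of the 5, was 0.151 to 1.35 in db/db Unx and 0.373 to 1.10 in db/m at 35 weeks. T and NK cell markers (10 genes) were low, with a summed value of 11.9 in replicate 03, 1.39 to 10.1 in the other 4 and 3.59 to 10.04 in db/m. The sum of the 4 neutrophil markers in the table was 27.3 in replicate 03 and at most 5.19 in the other 4, and 1.91 to 38.0 in db/db Unx at 26 weeks. Plasmacytoid dendritic cell markers, of cells known for making type I interferon, summed to 1.28 to 3.57 in 35-week db/db Unx kidneys and to 0.976 to 6.69 in db/m, with 3 of the 5 genes under 1 in every library of either group. The endothelial sum was 323 in replicate 03 and at most 430.0 in the group.

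The promoter windows can be set beside the changes. The 18 members with an ISRE core had a median log2 difference of 1.31 at 35 weeks, and the 16 with a window and no core had 0.50. At 26 weeks the medians were -0.15 and -0.14. The 10 members with a GAS had a 35-week median of 1.03, against 0.83 in the 24 without. These are descriptions of a chosen list, without a test. The 35-week medians include db/db Unx replicate 03 and were not computed without it. All 5 inducible GTPases with a window are among the 18, and their role had the highest median fold of replicate 03 over its group.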

How the data were processed

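Kidney total RNA was extracted with TRIzol and RNeasy and made into libraries with Nextera XT, per the labels' protocols. The authors deposited 1 table of normalized signal per gene and library. DRAGEN and the builds GRCm38 (mm10) are named per the submitters' processing notes, while for the version, annotation, strand setting and scaling the answer is not given in the sources used here. Low values of the deposited signal lay on steps of 1 count only in part (88.4% to 91.4% within 0.1 of a step), so no count model was used. Reads shared between paralogs or overlapping genes may be split either way.

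The members and lists were chosen with earlier results of these data known. Symbols and exon lengths came from the GENCODE M21 annotation. Values were tested as log2(value + 1) with limma 3.58.1 in R 4.3.3, in 1 fit of 4 groups over the 13495 genes, with robust, trended empirical Bayes, Benjamini-Hochberg adjustment and a threshold of 0.05. Fold changes on this scale understate those of low genes. The code was tested on simulated data. In each role, values were given for up to 3 members with the smallest adjusted p in a disease comparison and for the member with the highest mean. They were also given for up to 6 members called in each age comparison or in the interaction and for those with 1 outlying library in db/db Unx at 35 weeks. Pathway genes were named by call, up to 6 per comparison, and 1 further gene of the rule is not reported here. Socs1, Zbp1, Dhx58, Gbp7, Iigp1, Rtp4 and other members outside this rule were named after their values were seen. Alternatives were other pseudocounts, filters, scalings and weights, a replicate block, the libraries of 1 comparison only, and each library left out in turn. Leaving out replicate 03 with db/m 26-week replicate 04, or replicates 02 and 03, was chosen after seeing the data.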

Additional observations from a re-analysis of the deposited data

Results flagged for a closer look

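Dixon's test at the 95% level, on log2(value + 1) in groups of 5 or 6 libraries, marked single libraries far from the others. Over 135 tests, each of 1 gene in 1 group, chance alone marks about 1 in 20 on average, and the group of 12 was not tested. Flags of 1 library in several members are not independent, so this rate is no yardstick for their number. In db/db Unx at 35 weeks, replicate 03 was set apart as the highest library in 14 members. Its values were 19.7 for Usp18, 18.7 for Eif2ak2, 43.7 for Adar, 8.84 for Oas1a, 54.8 for Rsad2 and 51.5 for Cmpk2. In the IFIT family they were 81.6 for Ifit1, 67.1 for Ifit2, 328.9 for Ifit3 and 74.1 for Ifit3b. They were 137.6 for Ifitm3, 23.4 for Isg15, 27.7 for Herc6 and 99.6 for Gbp3.

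In db/m at 26 weeks, replicate 04 was far above the others in Ifi44 (9.81), Gbp2 (26.5), Igtp (83.3), Irgm1 (149) and Iigp1 (36.2). In the same group replicate 01 was far below the others in Rsad2 (26.7) and Parp14 (3.56), and replicate 03 in Sp100 (8.00). In db/m at 35 weeks, replicate 04 was far above the others in Ifit3b (7.15) and Ifi27 (52.1), replicate 01 far below in Adar (12.7) and replicate 05 far below in Ifitm3 (30.5). The difference between db/db Unx and db/m changed between the ages for Irf7 by limma's interaction term, 1.76 on the log2 scale (adjusted p = 0.0273).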

How the results depend on the processing

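With only the libraries of a comparison in the fit, limma called 14 members at 26 weeks (34.5% of all genes), 10 at 35 weeks (30.5%), 10 between the ages in db/db Unx (10.5%) and 1 in db/m (5.63%). Without db/m 26-week replicate 04 and db/db Unx 35-week replicate 03 it called 14 at 26 weeks (31.2%) and 10 between the ages in db/db Unx (7.64%). Without replicates 02 and 03 of db/db Unx at 35 weeks it called 17 at 26 weeks (35.4%), 1 between the ages in db/m (7.28%) and 9 in the interaction (1.13%). Array weights gave 3 in the interaction (1.32%). With the replicate block the calls were 4 at 26 weeks (29%), 15 at 35 weeks (30.4%), 2 between the ages in db/db Unx (3.58%), 1 in db/m (5.07%) and 0 in the interaction (0.215%). The labels do not say that numbers mark shared animals, none of the 30 same-numbered pairs had a correlation of deviations above 0.1 (-0.135 to 0.084), and 3 of 22 libraries correlated best with their own number. Leaving out 1 library at a time gave 3 to 16 calls at 26 weeks, 15 to 30 at 35 weeks, 9 to 30 between the ages in db/db Unx, 0 to 1 in db/m and 0 to 11 in the interaction. The stricter ISRE core was in 38.2% of the members' windows. The cause of these moves was not tested. Of 45 called pairs of gene and comparison, 31 stayed called without replicate 03, 16 in every alternative other than leaving out single libraries, and none changed direction. On the reading of values as counts times 1 factor per library, 1 count was worth 0.0295 to 0.0447. Values well under 1 thus rest on few counts, and values near 1 on more but still low numbers.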
